A study of Mus musculus with 4 samples.

Results

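The miR-30 family was followed through early molar development with 6 array probes, mmu-miR-30a, mmu-miR-30b, mmu-miR-30c, mmu-miR-30d, mmu-miR-30e and mmu-miR-30e*, taken by name from the 696 miRNA probes of the array. The mouse prefix mmu- is left out below. The first 5 report the main arm of a miR-30 precursor, and miR-30e* reports the opposite arm of the miR-30e precursor. The samples were mandibular molar tooth germs of untreated ICR mouse embryos (an outbred strain) at embryonic days 11, 12, 14 and 16, called E11, E12, E14 and E16. Each stage had 1 Agilent microRNA array, labelled with Cy3 from 100 ng of total RNA. The labels do not say how many embryos went into an array or whether they came from 1 litter. With 1 array per stage there is no replicate and no test between stages. Every error printed with ± is the measurement error of the arrays and holds nothing of the variation between embryos. A tooth germ holds epithelium and mesenchyme together, so in these whole-tissue samples more cells of a type and more RNA per cell cannot be told apart.

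MicroRNAs are short RNAs that guide the silencing complex to messenger RNAs, mainly through pairing of the seed, bases 2 to 8 from the 5′ end. The miR-30 family is broadly expressed and tends to be abundant in differentiated cells. Its known targets include Snai1, a repressor of epithelial adhesion genes, Runx2, a transcription factor of bone- and tooth-forming cells, and Smad1, which carries BMP signals. RNAs with the same seed are expected to share many targets, while the bases beyond the seed tell the members apart.

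The RefSeq mature sequences below (GRCm38.p6) show what the members share and where they part. Capitals mark the seed.
miR-30a: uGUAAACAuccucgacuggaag
miR-30e: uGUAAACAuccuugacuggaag
miR-30c: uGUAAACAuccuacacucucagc
miR-30e*: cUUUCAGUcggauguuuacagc
miR-30a*: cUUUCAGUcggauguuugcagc

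The main arms of miR-30a, miR-30c and miR-30e begin with the same 12 bases, the seed GUAAACA included. miR-30a and miR-30e then differ by 1 base in 22, C13U, counted from 1 at the 5′ end with the miR-30a base first. miR-30c differs from each of them at 5 positions over the shorter length. The opposite arms carry another seed, UUUCAGU, and those of miR-30a and miR-30e again differ by 1 base, G18A. The letters UGUUUAC, which are the reverse complement of the main-arm seed, are in miR-30e* and not in miR-30a*, and in 3 of the 1679 mature names of the RefSeq table (0.179%). Of the same names, 4 have the seed GUAAACA (0.238%), namely miR-30a, miR-30c, miR-30e and miR-384-5p. The table matched 4 of the 6 members, miR-30a, miR-30c, miR-30e and miR-30e*. It held no entry matching miR-30b or miR-30d. Both are therefore missing from these counts, and their sequences were not compared with the others. Probes of RNAs that differ by 1 base can take up each other's RNA, and its part in the values below was not tested.

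The 6 members come from 6 miRNA genes on 3 chromosomes. Mir30a (mature arm chr1:23272274-23272295, plus strand) has Mir30c-2 as its nearest miRNA gene (chr1:23291714-23291736, plus strand). Mir30e (chr4:120772660-120772681, minus strand) and Mir30c-1 (chr4:120769584-120769606, minus strand) both lie within the span of Nfyc, a gene for a subunit of the transcription factor NF-Y, and Mir30f overlaps Mir30e there. Mir30b and Mir30d neighbour each other on chromosome 15. Both Mir30c genes give the same mature RNA, so the miR-30c probe reads the sum of 2 loci. The precursors of the pair of members that differ by 1 base are shown to place the 2 arms, which are in capitals, 5′ arm first.
Mir30a hairpin (chr1:23272269-23272339, plus strand): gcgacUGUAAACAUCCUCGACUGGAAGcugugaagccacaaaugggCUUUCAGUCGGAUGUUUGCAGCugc
Mir30e hairpin (chr4:120772606-120772697, minus strand): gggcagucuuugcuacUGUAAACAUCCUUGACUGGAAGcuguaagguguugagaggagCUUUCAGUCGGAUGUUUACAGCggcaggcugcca

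All 6 members were detected at all 4 stages by the array's own flag. On the arrays as a whole, 209 to 250 of the 696 miRNAs were detected per stage and 197 at every stage. The stated error was 6.36% to 11.9% of the signal for the 5 main arms and 15.8% to 25.4% for miR-30e*, whose lowest signal was 3.94 times its error. Signals differed in general brightness between arrays. The 75th percentile over the 197 miRNAs was higher at E16 than at E11 by 1.44 on the log2 scale, in steps of 0.67, 0.41 and 0.36. Differences are therefore given both on the deposited signals and after division by this percentile, which is the scaling used below unless another is named. Signals of different probes are not set against each other, since probes differ in affinity.

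The 2 members that differ by 1 base were both brightest at E16 and dimmest at E11. The miR-30a signals were 64.6 ± 5.7 at E11, 161 ± 11 at E12, 247 ± 16 at E14 and 413 ± 26 at E16. Each stage was brighter than the one before, and after scaling miR-30a alone of the 6 was higher at each of the 3 steps, where median scaling gave 3 members and the deposited signals 4. The miR-30e signals were 54.2 ± 6.4, 142 ± 13, 166 ± 14 and 426 ± 33 at the same stages. They stood close together at E12 and E14, with the 2 large gaps from E11 to E12 and from E14 to E16.

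The remaining main arms had shallower courses. For miR-30b the signals were 115 ± 11 at E11, 231 ± 21 at E12, 217 ± 19 at E14 and 366 ± 31 at E16, so that E12 and E14 lay within their errors of each other. For miR-30c they were 253 ± 22, 490.4 ± 42, 524 ± 44 and 678 ± 56. For miR-30d they were 64.0 ± 6.7, 130.0 ± 11, 166 ± 13 and 228 ± 17. In all 3, E11 was the dimmest stage and E16 the brightest. The minor arm miR-30e* was read at 14.6 ± 3.7, 23.9 ± 5.1, 20.4 ± 4.1 and 41.8 ± 6.6. Its E11, E12 and E14 signals lay within 2 combined errors of each other, and E16 stood above them.

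**Figure D1:**
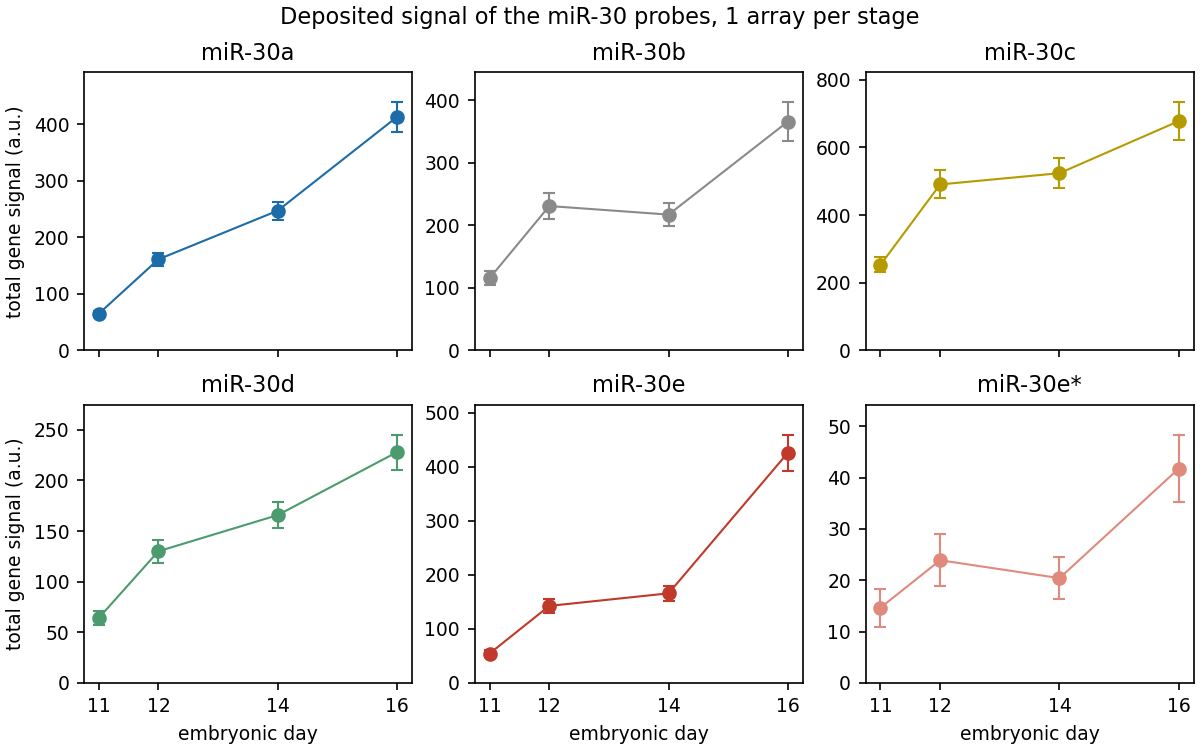
Deposited total gene signal (arbitrary units, linear axes from 0, each panel on its own scale) of the 6 miR-30 probes against embryonic day, with 1 array per stage and bars for the stated signal error. E16 is the brightest stage in each panel, from 41.8 for miR-30e* to 678 for miR-30c.

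The comparison of E16 with E11 asks how far the family moved over the whole series. miR-30e was 2.90-fold higher at E16 (log2 1.54 ± 0.21) and miR-30a 2.36-fold higher (1.24 ± 0.16). These 2 of 6 members passed the 2-fold size rule, and 0 of 6 were 2-fold lower. In the background of 205 miRNAs with a signal at E11 and E16, 13.7% passed 2-fold upward and 37.6% downward. Both calls held under all 6 scalings tried, with a range of 1.51 to 2.97 for miR-30e and 1.21 to 2.68 for miR-30a. The authors' table repeats the quantile normalization here and in every count of scalings below, so it is no separate check. On the deposited signals all 6 members passed 2-fold, but so did 44.9% of all miRNAs.

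The other 4 members differed by less. miR-30d was at 0.40 ± 0.19 and was positive under all 6 scalings (0.36 to 1.83). miR-30b was at 0.23 ± 0.18, positive under all 6 as well (0.11 to 1.67). miR-30e* was at 0.08 ± 0.43 and turned negative under quantile normalization and in the authors' table (-0.01). miR-30c was at -0.01 ± 0.17, with a range from -0.04 to 1.42 over the scalings. Of the 6 members, miR-30a, miR-30d and miR-30e differed from 0 by more than 2 errors after scaling. The share of all miRNAs past 2 errors was not counted here or for the steps below, so such counts have no background beside them. miR-30d was just under 2 errors with the 75th percentile over all probes (0.36). With median scaling miR-30b (0.75) and miR-30c (0.51) were past 2 errors too, and on the deposited signals all 6 were. With detection at 5 times the error, which changes the scaling, miR-30b (0.63) and miR-30c (0.38) were past them as well.

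A reading that no constant scaling can move is each member's place among all miRNAs. The median of the 205 miRNAs was at -0.74, and all 6 members lay above it, as they did with quantile normalization. The distance was 2.28 for miR-30e, 1.98 for miR-30a, 1.14 for miR-30d, 0.98 for miR-30b, 0.82 for miR-30e* and 0.73 for miR-30c. By rank from the top, miR-30e was 17th, miR-30a 25th, miR-30d 47th, miR-30b 56th, miR-30e* 68th and miR-30c 72nd. The median of the members was 0.31, against 1.58 in the let-7 family, best known for its accumulation in differentiating cells, with 8 of its 9 members at least 2-fold higher. In the miR-17-92 cluster, known from proliferating cells, the median was -1.29, with 5 of 6 members at least 2-fold lower. The direction of that last median rests on the scaling, since it was 0.14 on the deposited signals with 0 of 6 lower.

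**Figure D2:**
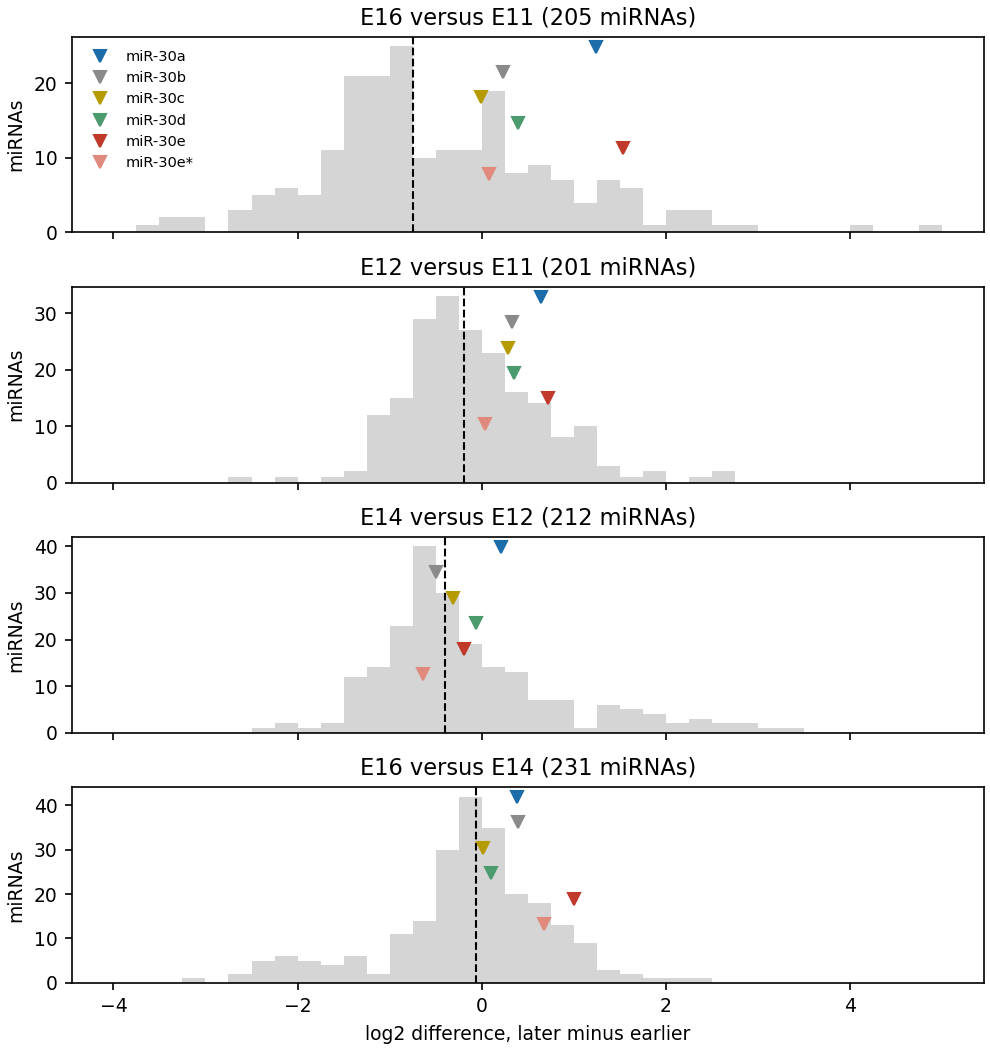
Histograms of the log2 difference (later minus earlier stage, after 75th percentile scaling) of every miRNA detected at both stages of each comparison, with the median of all miRNAs as a dashed line and the 6 miR-30 members as coloured triangles placed at different heights for legibility only. All 6 members lie right of the median in E16 versus E11, E12 versus E11 and E16 versus E14, and 4 of 6 do in E14 versus E12; with quantile normalization 6, 5, 5 and 5 of 6 do in that order.

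In the first step, E11 to E12, all 6 members had positive differences, with a median of 0.34 against -0.20 for all 201 miRNAs detected at both stages. miR-30e was at 0.72 ± 0.21, miR-30a at 0.65 ± 0.16, miR-30d at 0.35 ± 0.20, miR-30b at 0.33 ± 0.19 and miR-30c at 0.29 ± 0.18. Only the first 2 of these exceeded 2 errors. With quantile normalization miR-30d (0.52) did as well, and on the deposited signals all 5 did. miR-30e* was at 0.04 ± 0.48 and was positive under 3 of 6 scalings, whereas the other 5 were positive under all 6. By the size rule 0 of 6 members were 2-fold higher and 0 lower, where 9.45% and 8.46% of all miRNAs were. On the deposited signals 4 of 6 were, beside 22.9% of all.

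Between E12 and E14, from bud to cap stage, the members parted. miR-30a was at 0.21 ± 0.14 and positive under all 6 scalings. miR-30b was at -0.50 ± 0.18 and miR-30e* at -0.64 ± 0.42, both negative under all 6. miR-30d (-0.06 ± 0.17), miR-30e (-0.19 ± 0.18) and miR-30c (-0.32 ± 0.17) lay between them, and each turned positive on the deposited signals. Of the 6 members, miR-30b was the 1 that differed from 0 by more than 2 errors, and this call rests on the scaling. miR-30b was under 2 errors with median scaling (-0.26), quantile normalization and the authors' table (-0.31), and as deposited (-0.09). In those 4 settings miR-30a (0.45 to 0.62) was past 2 errors, and on the deposited signals miR-30d (0.35) was too. The median of the members was -0.25, with -0.40 for the 212 miRNAs detected at both stages, and 4 of 6 members lay above the latter. None of the 6 reached 2-fold in either direction, while 12.7% of all miRNAs passed 2-fold upward and 15.1% downward.

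From E14 to E16 the differences were positive for all 6 members under all 6 scalings. miR-30e led with 1.01 ± 0.16, a 2.01-fold difference that fell under 2-fold with quantile normalization and in the authors' table (0.89). It was followed by miR-30e* (0.68 ± 0.37), miR-30b (0.40 ± 0.18), miR-30a (0.39 ± 0.13), miR-30d (0.10 ± 0.16) and miR-30c (0.02 ± 0.17). Those past 2 errors were miR-30a, miR-30b and miR-30e. With quantile normalization and in the authors' table miR-30a (0.15) and miR-30b (0.23) were under 2 errors. Under every scaling tried except the one used here, miR-30e* was past 2 errors (0.84 to 1.03). With median scaling miR-30d (0.35) was past them too, and on the deposited signals all 6 members were, miR-30c (0.37) and miR-30d (0.46) included. At this step 1 of 6 members was at least 2-fold higher, beside 7.36% of the 231 miRNAs detected at both stages, and 0 of 6 were lower, beside 13.4%. On the deposited signals 2 of 6 were higher, beside 15.6% of all. miR-30e ranked 17th from the top and miR-30c 102nd.

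**Figure D3:**
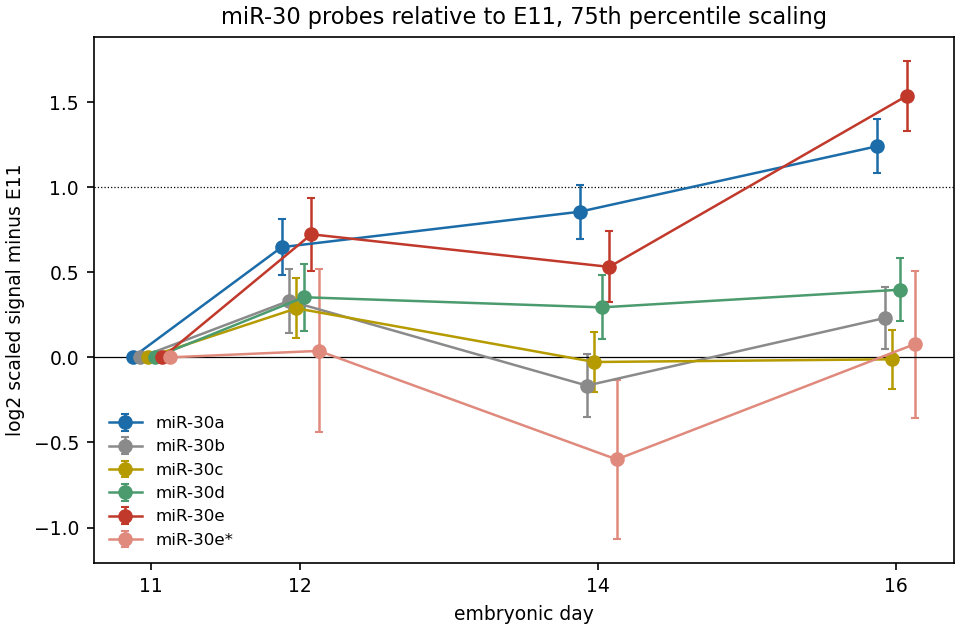
Log2 signal relative to E11 after 75th percentile scaling, against embryonic day, for the 6 miR-30 probes (1 array per stage, points shifted sideways for legibility). Bars combine the stated errors of the stage and of E11, and the dotted line marks 2-fold. miR-30e and miR-30a end at 1.54 and 1.24, and the other 4 between -0.01 and 0.40.

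The stages were also ranked by level within each member, and stages next to each other in rank were compared. After scaling, miR-30b, miR-30c, miR-30d and miR-30e* had no 2 stages adjacent in rank more than 2 errors apart. With quantile normalization miR-30d had 1 such gap, from E11 to E12 (0.52). With median scaling miR-30d had 1, from E14 to E16 (0.35), and miR-30b had 1, from E12 to E16. On the deposited signals all 3 gaps exceeded 2 errors in miR-30a and miR-30d, 2 of 3 in miR-30b, miR-30c and miR-30e, and 1 of 3 in miR-30e*. In miR-30a, scaled, the gap from E11 to E12 (0.65 ± 0.16) and that from E14 to E16 (0.39 ± 0.13) exceeded 2 errors, and the gap between E12 and E14 did not. With quantile normalization its gap from E12 to E14 (0.49) exceeded 2 errors, and that from E14 to E16 (0.15) did not. In miR-30e, scaled, the order was E11, E14, E12 and E16. Its gap from E11 to E14 (0.53 ± 0.21) and that from E12 to E16 (0.82 ± 0.17) exceeded 2 errors, and E14 and E12 did not separate.

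Differences between members do not depend on any scaling that is 1 constant per array, and these set miR-30a and miR-30e apart from the rest. Of the 15 pairs, 8 differed in their E16 versus E11 change by more than 2 combined errors. The share among pairs of other miRNAs was not counted, here or for the steps, so the pair counts compare the members only with each other. These 8 were the pairs that join miR-30a or miR-30e with miR-30b, miR-30c, miR-30d or miR-30e*. The largest, miR-30e minus miR-30c, was 1.55 ± 0.27, or 2.93-fold, and the smallest of the 8, miR-30a minus miR-30d, was 0.84 ± 0.24. miR-30e minus miR-30a was 0.30 ± 0.26, with an interval of 2 errors from -0.22 to 0.82. With quantile normalization, which is no constant, 10 of the 15 pairs exceeded 2 errors, as miR-30d then also exceeded miR-30b (0.63) and miR-30c (0.73).

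**Figure D4:**
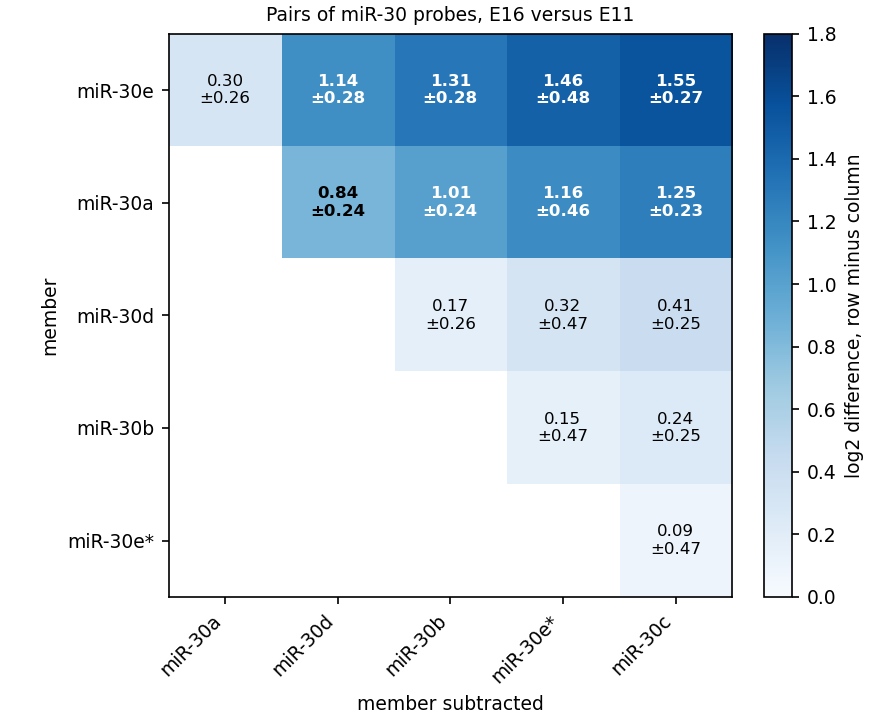
Log2 difference between members in their E16 versus E11 change (row minus column, colour scale from 0), with the combined stated error, for the 15 pairs of miR-30 probes from 1 array per stage. Bold marks the 8 pairs more than 2 errors from 0, all in the miR-30e and miR-30a rows.

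Read by gene neighbourhood, the size of the differences varied. The neighbours miR-30d and miR-30b differed by 0.17 ± 0.26 in their E16 versus E11 change, an interval of 2 errors from -0.36 to 0.69. That difference was 0.63 with quantile normalization and in the authors' table, past 2 errors. For the Nfyc pair, miR-30e exceeded miR-30c by 1.55 ± 0.27. For the pair on chromosome 1, miR-30a exceeded miR-30c by 1.25 ± 0.23. miR-30c, the product of both loci, thus had a smaller change than either neighbour, and the probe cannot assign its signal to either locus.

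The 2 near-identical members were not alike at every step. From E11 to E12, miR-30e minus miR-30a was 0.08 ± 0.27, which is within its error. From E12 to E14, miR-30a exceeded miR-30e by 0.40 ± 0.22, under 2 errors, while it exceeded miR-30b by 0.71 ± 0.23 and miR-30c by 0.52 ± 0.22, the 2 pairs past 2 errors at that step. With quantile normalization 5 of 15 pairs were past 2 errors there, miR-30a over miR-30e (0.51) among them. From E14 to E16 the order turned, and miR-30e exceeded miR-30a by 0.62 ± 0.21, more than 2 errors. At that step miR-30e also exceeded miR-30c by 0.99 ± 0.24, miR-30d by 0.90 ± 0.23 and miR-30b by 0.61 ± 0.24. Over this step 4 of 15 pairs exceeded 2 errors, all of them with miR-30e. With quantile normalization 7 did, as miR-30e* then exceeded miR-30a (0.82), miR-30c (0.89) and miR-30d (0.92). From E11 to E12, 0 of 15 pairs did so, a count of 4 with quantile normalization.

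The arms of the miR-30e precursor shown above also parted. Over E11 to E16 the main arm exceeded miR-30e* by 1.46 ± 0.48 (1.46 to 1.71 over the scalings), a 2.75-fold difference with an interval of 2 errors from 0.50 to 2.42. In the steps it was 0.69 ± 0.52, 0.45 ± 0.46 and 0.33 ± 0.40, none past 2 errors. The last turned to -0.08 with quantile normalization.

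The array carried 4 further probes of the family, the opposite arms miR-30a*, miR-30b*, miR-30c-1* and miR-30c-2*. Of these, 3 were not detected at any stage. miR-30a* was detected at E14 (12.1 ± 3.7) and E16 (15.7 ± 4.4) and not at E11 or E12. The E16 value was 2.86-fold the lowest detected signal of any miRNA on the E11 array, 5.48, as deposited. After scaling that ratio was 1.06. The detection limit of the miR-30a* probe itself is not given, so neither ratio bounds its change from E11. E14 and E16 are the 2 stages at which miR-30a itself was brightest. They are also the 2 with the most miRNAs detected, 249 and 250, against 209 at E11 and 221 at E12. The 1 probe outside the family with the same seed in RefSeq, miR-384-5p, was not detected at any stage.

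Profiles over the 4 stages were compared by the root mean square distance between log2 courses, each centred on its own mean, among the 197 miRNAs detected throughout. This describes 4 points that share their arrays. The closest to miR-30a were miR-27b (0.02), the epithelial miR-429 (0.07) and miR-23a (0.13). To miR-30e they were miR-429 (0.16), miR-195 (0.18) and the let-7 relative miR-98 (0.20). The closest to miR-30b were the endothelial miR-126-3p (0.07), miR-181c (0.11) and miR-322 (0.12). To miR-30c they were miR-500 (0.05), miR-331-3p (0.08) and miR-181c (0.11), and to miR-30d miR-23b (0.09), miR-425 (0.09) and miR-181c (0.10). miR-30e* lay closest to miR-434-5p (0.07), the mesenchymal miR-140* (0.09) and miR-126-3p (0.14). For scale, the median distance from a member to all 197 was 0.49 to 0.87.

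None of these 18 places was taken by another miR-30 member. With only 6 members among the 197 profiles, few such places would fall to the family in any case, so the count does not set the members apart. miR-30e was the 13th closest profile to miR-30a, at 0.22. From miR-30b, miR-30c was the 5th closest (0.14), miR-30e* the 10th (0.16) and miR-30d the 12th (0.18). From miR-30c, miR-30d was the 11th, at 0.17. miR-30e* stood at place 49 from miR-30e, at 0.55.

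Markers of cell types were read over the same stages, with sums on deposited signals that also hold the differences in brightness between arrays. Of 7 epithelial miRNAs (the miR-200 family, miR-203 and miR-205) 6 were detected at E11 and 7 from E12 on, with summed deposited signals of 1795, 3382, 5363 and 9364. Of 8 mesenchymal miRNAs 7 were detected throughout, miR-145 at no stage, with sums of 10982, 17094, 11293 and 13020. After scaling these 7 ran from -2.51 to 1.67 in E16 versus E11, with 2 at least 2-fold lower and 1 higher. Sums lean on the brightest probe, which at E12 gave 2190 of the epithelial and 9031 of the mesenchymal sum. The 2 endothelial probes, miR-126-3p and miR-126-5p, summed to 239.8, 446, 427 and 791. The erythroid miR-451 and miR-144 summed to 404, 422, 665 and 1230, and miR-144 was above detection only at E16. The leukocyte miR-223 and miR-142-3p went from 0 of 2 detected at E11 to 2 of 2 at E16, where they summed to 147. Of 4 neural miRNAs 1 or 2 were detected per stage, summing to 14.6, 98.8, 35.6 and 87.7, with miR-124 and miR-9 at no stage. None of the 4 muscle miRNAs was detected at any stage. After scaling, the epithelial median was 1.35 in E16 versus E11, the mesenchymal -0.40 and the endothelial 0.09, beside 0.31 for miR-30. On the deposited signals these medians were 2.78, 1.03, 1.53 and 1.75, so the mesenchymal direction rests on the scaling. After scaling, the erythroid miR-451 was at 0.15 and the neural miR-128 at 0.02 in E16 versus E11. Each was the 1 probe of its list detected at both stages. The part of these cell types in the miR-30 differences was not tested.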

How the data were processed

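Each stage was measured on 1 array. Per the file headers, each deposited intensity is Agilent's total gene signal, with its error and a detection flag. An undetected feature is written as 0.1. Neither the labels nor the file headers name the scanner software, background method or genome build. The authors' series value table also holds linear intensity. Each of its 929 detected values came back within 0.1% when the deposited signals of all features were quantile normalized, with no centring. Its column medians over detected values are 123, 106, 83.7 and 83.0.

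The 22 control features were set aside. Log2 signals were scaled by subtracting each array's log2 75th percentile, computed over the 197 miRNAs with a detection flag on every array. Differences are later minus earlier, with the 2 stated errors combined in quadrature. The 2-fold rule is one of size. Intervals of 2 combined errors describe measurement on the arrays. Alternatives were 5 other scalings (75th percentile over all probes, median, quantile normalization, none, the authors' table), detection at 5 times the error, and other size rules. The text names all members, the other miR-30 and same-seed probes, and for each member the 3 closest profiles. The code was tested on simulated data with known differences. The members and lists were chosen with earlier results of these data known. Sequences and gene neighbours are from RefSeq (GRCm38.p6). Python 3.11.15, numpy 2.4.6 and pandas 2.3.3 were used.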

Additional observations from a re-analysis of the deposited data

How the results depend on the processing

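The 2 calls of E16 versus E11, miR-30a and miR-30e, held under all 6 scalings, of which quantile normalization and the authors' table gave the same values. The median of the members was 0.31 there, and moved to 0.83 with median scaling, 1.75 without scaling (6 members at least 2-fold higher) and 0.79 with detection at 5 times the error. That rule drops miR-30e* and also changes the set of miRNAs behind the scaling, by which miR-30d moved from 0.40 to 0.79. By the same change miR-30b moved from 0.23 to 0.63 and miR-30c from -0.01 to 0.38, both then past 2 errors. For E12 versus E11 the median of 0.34 moved to 1.01 without scaling, with 4 members higher in place of 0, and a 1.5-fold rule gave 2. For E14 versus E12 the median of -0.25 moved to -0.016 with median scaling, 0.16 without scaling and -0.045 with the stricter detection. For E16 versus E14 the median of 0.39 moved to 0.64 with median scaling, 0.75 without scaling and 0.19 with quantile normalization and in the authors' table. The count of 1 there became 2 without scaling, 0 with quantile normalization, 0 in the authors' table and 2 with a 1.5-fold rule. No member past 2-fold changed sign under an alternative. Precision is limited by the single array of each stage, and for miR-30e* by a signal only 3.94 to 6.31 times its error. No paired analysis was possible because each stage has 1 array.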
